A study of Mus musculus with 2 samples.

Results

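Toll-like receptors (TLRs), with their coreceptors, chaperone and adaptor, were examined in scRNA-Seq of sorted spinal microglia. The 10 genes were chosen by symbol, as 6 receptors (Tlr2, Tlr3, Tlr4, Tlr7, Tlr9 and Tlr13), 2 coreceptors (Cd14 and Ly96), the chaperone Unc93b1 and the adaptor Myd88, out of 32285 genes counted. All 10 were present in both count tables. There was 1 library from control mice, labelled WT and given in the study's legend as Eif4ebp1 fl/fl, and 1 library from mice labelled 4E-BP1 cKO (Eif4ebp1 fl/fl:TMEM119CreERT2, written 4E-BP1–cKO). In the latter, the Cre recombinase is driven by the promoter of Tmem119, a gene of microglia, and acts only after 4-hydroxytamoxifen, which the study's methods give as injections from postnatal day 4 to 9. Male mice of 8 to 10 weeks were used, and no source used here gives the number of mice behind each library. Cells of the lumbar cord were freed with collagenase IV and mechanical force, passed through Percoll, sorted as CD45lo CD11b+ CX3CR1+ and captured in 10x droplets. Transcripts were read at their 3′ end, and counts are of unique molecular identifiers (UMIs), in which PCR copies of a molecule are merged.

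TLRs are receptors of innate immunity that recognize microbial and self-derived molecules. TLR2 and TLR4 act mainly at the cell surface, where CD14 hands lipopolysaccharide to the complex of TLR4 with MD-2, the product of Ly96. TLR3, TLR7, TLR9 and TLR13 sense nucleic acids in endosomes, which they reach with the help of UNC93B1. Most TLRs signal through MyD88 to NF-κB and induce cytokines and chemokines, whereas TLR3 uses another adaptor. In microglia, TLR signaling is known as a trigger of the reactive state and has been linked to pain after nerve injury.

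Barcodes with over 300 genes and less than 5% of UMIs from mitochondria gave 1147 control cells with 4803562 UMIs and 445 4E-BP1–cKO cells with 1734332 UMIs, with medians of 3053 and 2776 UMIs per cell and 0 barcodes in common. At least 3 of 12 microglial markers were detected in 96.9% of control and 95.7% of 4E-BP1–cKO cells, and no other cell type reached 3 of its markers in more than 12 cells of a library. Eif4ebp1 itself was counted at 19.8 CPM (counts per 1000000 UMIs; 95% interval 16.0 to 24.2) in the control library and 29.4 CPM (21.9 to 38.7) in the 4E-BP1–cKO library. The study's genotyping names the conditional exon, but where the counted reads fell relative to that exon was not examined. The level of Eif4ebp1 therefore does not check the deletion, and the genotypes rest on the labels. The genotypes could not be tested against each other on 1 library each, and all intervals below are 95% intervals that cover counting error only. Genotype, library, depth and sort cannot be told apart.

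The chaperone Unc93b1 was the most abundant of the 10 transcripts. UMI counts from the 3′ end count each molecule once and are not divided by gene length, and every level below is on that scale. Unc93b1 (ENSMUSG00000036908; chromosome 19, 3935158 to 3949340 in GRCm38) was counted at 600.2 CPM in the control library (578 to 622) and 605 CPM in the 4E-BP1–cKO library (569 to 643), from 2883 and 1050 UMIs. It was detected in 75.2% and 73.0% of the cells. No other gene of the set was detected in more than 52.8% of the cells of a library.

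Cd14 (ENSMUSG00000051439; chromosome 18, 36725064 to 36726815), the coreceptor for lipopolysaccharide, came next in both libraries. It stood at 327 CPM in the control library (1570 UMIs, 311 to 343) and at 469 CPM in the 4E-BP1–cKO library (813 UMIs, 437 to 502). Single cells held up to 48 and 34 of its UMIs, the highest values of the set.

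Among the receptors, Tlr7 and Tlr2 were the most abundant. Tlr7 (ENSMUSG00000044583; chromosome X, 167303380 to 167330574), a sensor of single-stranded RNA, was at 203 CPM in the control library (191 to 216) and 172 CPM in the 4E-BP1–cKO library (153 to 193). Tlr2 (ENSMUSG00000027995; chromosome 3, 83836272 to 83841824), a receptor for bacterial lipoproteins, was at 163 CPM (152 to 175) and 218 CPM (197 to 241). The order of this pair therefore differed, with Tlr7 above Tlr2 in the control library and Tlr2 above Tlr7 in the 4E-BP1–cKO library, and in neither library did the intervals of the pair overlap.

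The remaining receptors were lower. Tlr13 (ENSMUSG00000033777; chromosome X, 106143275 to 106160493), a mouse receptor for bacterial ribosomal RNA, was at 80.6 CPM in the control library (72.7 to 89.0) and 62.3 CPM in the 4E-BP1–cKO library (51.1 to 75.2). Tlr4 (ENSMUSG00000039005; chromosome 4, 66827551 to 66846581), the receptor for lipopolysaccharide, was at 63.7 CPM (56.8 to 71.3) and 62.8 CPM (51.6 to 75.8). Tlr3 (ENSMUSG00000031639; chromosome 8, 45395665 to 45411075), a sensor of double-stranded RNA, was at 46.8 CPM (40.9 to 53.4) and 43.2 CPM (34.0 to 54.2). In the 4E-BP1–cKO library these 3 receptors followed each other with overlapping intervals, whereas in the control library only Tlr3 overlapped with the next gene in the order, Ly96.

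Ly96 (ENSMUSG00000025779; chromosome 1, 16688456 to 16709605) was at 38.5 CPM in the control library (33.2 to 44.5) and 32.9 CPM in the 4E-BP1–cKO library (24.9 to 42.6). Myd88 (ENSMUSG00000032508; chromosome 9, 119335934 to 119340018), the shared adaptor, was at 31.2 CPM (26.4 to 36.6) and 34.0 CPM (25.9 to 43.9), from 150 and 59 UMIs. Ly96 and Myd88 could not be ordered in either library. The surface complex for lipopolysaccharide was therefore counted very unequally, with Cd14 at several times the level of Tlr4 and Ly96 in both libraries.

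Tlr9 (ENSMUSG00000045322; chromosome 9, 106222598 to 106226876), the sensor of unmethylated DNA, was the least abundant member, with 23 UMIs in the control library (4.79 CPM, 3.04 to 7.18) and 11 in the 4E-BP1–cKO library (6.34 CPM, 3.17 to 11.3). It was detected in 2.01% and 2.25% of the cells. Aqp4, a gene of astrocytes, was detected in 1.83% and 1.57% of the same cells, Flt1, a gene of endothelium, in 2.01% and 1.12%, and Mbp, a gene of oligodendrocytes, in 10.2% and 14.8%. The detection of Tlr9 was within this range of genes from other cells, so it could not be separated from free RNA. Myd88, Ly96, Tlr3, Tlr4 and Tlr13 were detected in 10.1% to 21.4% of the cells of a library, above Aqp4 and Flt1. In the 4E-BP1–cKO library Myd88, Ly96 and Tlr3 were detected less often than Mbp. The intervals of Tlr4 (12.5% to 19.5%) and Tlr13 (13.7% to 20.9%) overlapped that of Mbp there (11.7% to 18.5%). In the control library those of Myd88 (9.07% to 12.8%) and Ly96 (10.0% to 13.9%) overlapped that of Mbp (8.51% to 12.1%). Where intervals overlap, detection did not separate a gene from free RNA. No RefSeq gene span overlapped that of any of the 10 genes.

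**Figure D1:**
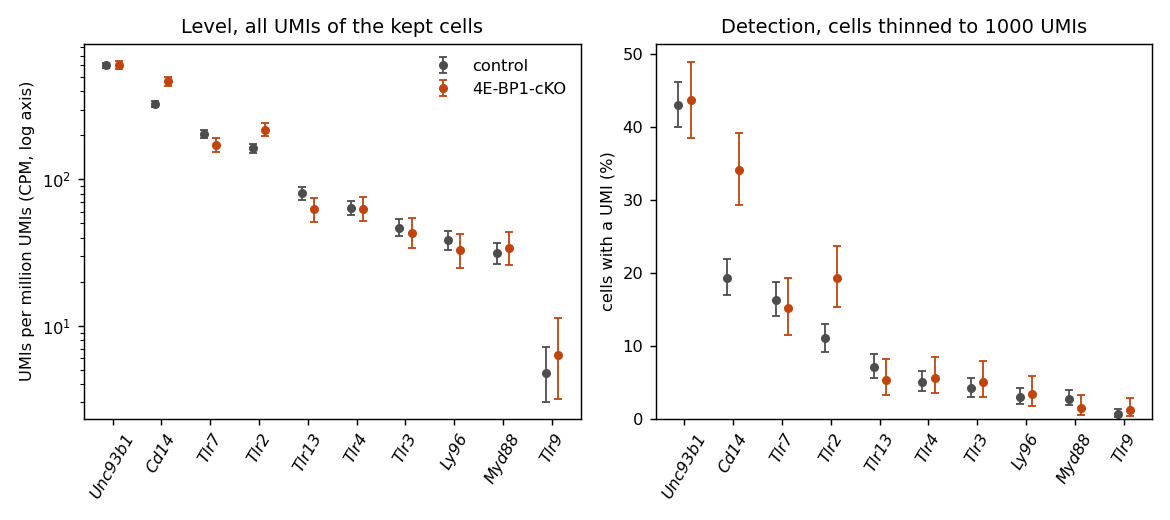
Level (left, CPM on a log axis) and share of cells with a UMI after each cell was thinned to 1000 UMIs (right, percent) of the 10 genes in the control library (grey) and the 4E-BP1–cKO library (orange). Bars are 95% counting intervals. Cd14 and Tlr2 are higher in the 4E-BP1–cKO library in both panels, and Unc93b1 lies at 600.2 and 605 CPM.

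Start regions of 5 of the 10 genes (Tlr2, Tlr3, Tlr9, Tlr13 and Myd88) were available from RefSeq (GRCm38.p6). The 250 bases before each start in that table were searched on both strands for the letters of 3 motifs of factors that act downstream of TLRs or in myeloid cells. These were the NF-κB consensus, the PU.1 core GAGGAAG and the interferon-stimulated response element GAAANNGAAA. Short stretches around the matches are shown because Tlr2 and Myd88 are known to be induced by the same signals that their products pass on. Capitals mark the match, and each stretch is written 5′ to 3′ along the gene's own strand.
Tlr2, NF-κB consensus, chr3:83841762-83841791, minus strand: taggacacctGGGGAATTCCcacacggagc
Tlr3, NF-κB consensus, chr8:45410572-45410601, minus strand: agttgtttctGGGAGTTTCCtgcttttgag
Tlr9, PU.1 core, chr9:106222475-106222503, plus strand: gagagtggaaaGAGGAAGgggttgagggg
Tlr13, PU.1 core, chrX:106143181-106143209, plus strand: aaaaaagagaaGAGGAAGgaaatgtctca
Myd88, interferon-stimulated response element, chr9:119340039-119340068, minus strand: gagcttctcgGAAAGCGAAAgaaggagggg

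For Tlr2 and Tlr3 the start in the table lies inside the gene span given above, so that their stretches are within the gene and not before its outermost start, whereas for Tlr9, Tlr13 and Myd88 it is the start of the span. In Tlr2 a further match to the NF-κB consensus overlapped the printed match, shifted by a single base. The NF-κB consensus was present in 7.25% of all 32851 start regions of this length, the PU.1 core in 10.6% and the interferon-stimulated response element in 2.98%. A match is a description of letters, and binding was not measured.

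Between the libraries, Cd14 and Tlr2 were higher and Tlr7 and Tlr13 lower in the 4E-BP1–cKO library, each by less than 1.5-fold. Cd14 was 1.43-fold higher (1.32 to 1.56), a difference of 0.52 on the log2 scale. Tlr2 was 1.33-fold higher (1.18 to 1.51; 0.41). For both genes the intervals of the 2 levels did not overlap, and the share of all genes with intervals apart was not counted.

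Tlr7 in the 4E-BP1–cKO library was 0.849 times its control level (0.743 to 0.967), and Tlr13 was 0.773 times its control level (0.619 to 0.959). Both intervals lay below 1, with upper ends close to it, and they cover counting error only. Both genes code for receptors of RNA in endosomes, and their chaperone Unc93b1 had a ratio of 1.01 (0.939 to 1.08). Tlr4 had a ratio of 0.987 (0.785 to 1.23) and Ly96 of 0.853 (0.623 to 1.15), so the other parts of the lipopolysaccharide complex did not show the difference of Cd14 at this depth. The ratios of Tlr3 (0.923, 0.701 to 1.20), Myd88 (1.09, 0.792 to 1.48) and Tlr9 (1.32, 0.583 to 2.83) all had intervals that included 1.

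None of the 10 genes (0 of 10) was past 1.5-fold in either direction, beside 15.6% of the 11784 genes with at least 20 UMIs. The median log2 ratio was 0.00 over the members and -0.05 over all these genes. With a pseudocount of 10 CPM, which damps the ratios of genes with low counts, the share over all genes was 2.86% and that of the members again 0.

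The difference in Cd14 and Tlr2 was wider after cells were thinned to equal depth in a single random draw. Each cell was thinned to 1000 UMIs, and 108 shallower control cells and 87 shallower 4E-BP1–cKO cells were dropped. Cd14 was then detected in 19.3% of control cells (17.0% to 21.9%) and 34.1% of 4E-BP1–cKO cells (29.2% to 39.2%), against 46.0% and 52.8% before thinning. Tlr2 was detected in 11% (9.14% to 13%) and 19.3% (15.3% to 23.7%), against 32.5% and 38.9%. The intervals of the libraries did not overlap for these 2 genes. The share of all genes with intervals apart was not counted, so these 2 cannot be set against it.

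For Unc93b1 the thinned shares were 43.0% and 43.6%, and for Tlr7 16.3% and 15.1%. Tlr13 was detected in 7.12% and 5.31% of thinned cells, Tlr4 in 5.0% and 5.59%, Tlr3 in 4.14% and 5.03%, Ly96 in 2.98% and 3.35%, Myd88 in 2.69% and 1.4% and Tlr9 in 0.674% and 1.12%. For these 8 genes the intervals overlapped. UMIs were also summed over thinned cells, where each cell has the same weight. Cd14 then differed by 0.91 on the log2 scale (ratio interval 1.53 to 2.31) and Tlr2 by 0.90 (1.4 to 2.48), both past 1.5-fold. Myd88 passed as well, at -1.04 on 5 UMIs in the 4E-BP1–cKO library. Of all genes tested, 25.8% were past 1.5-fold after thinning, against 15.6% before it. Without thinning but with each cell's CPM weighted equally, Cd14 differed by 0.52 and Tlr2 by 0.67. When cells counted equally, Tlr2 was thus past 1.5-fold, as were 23.8% of all genes tested, and Cd14 was not. Unthinned cells of at least 1000 UMIs gave 0.55 for Cd14 and 0.39 for Tlr2. Why the thinned values were wider was not tested.

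**Figure D2:**
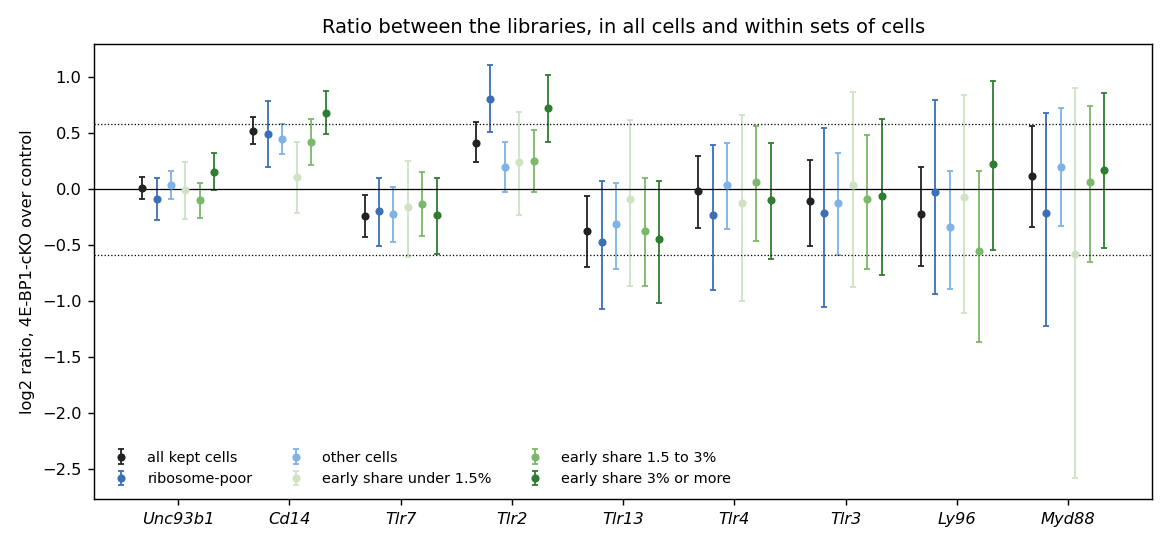
Log2 ratio of the 4E-BP1–cKO over the control library for 9 genes (Tlr9 is left out for its few UMIs), in all kept cells (black), on each side of the ribosomal limit of 3% (blue) and in 3 bins of early-gene share (green). Bars are 95% counting intervals and dotted lines mark 1.5-fold. Tlr2 passes 1.5-fold in ribosome-poor cells (0.80) and in the highest early-gene bin (0.72), and Cd14 in the highest early-gene bin (0.68). In ribosome-poor cells 23.0% of all genes tested passed, and for the bins this share was not computed.

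The libraries differed in their mix of cells. Cells fell on both sides of a limit of 3% of UMIs on ribosomal protein genes, and those below it, here called ribosome-poor, were 57.3% of control (657) and 47.6% of 4E-BP1–cKO cells (212). The median share of UMIs on a list of 21 early genes, which dissociation can induce (Fos, Jun, Egr1 and others), was 2.08% in control and 2.49% in 4E-BP1–cKO cells. The part of dissociation in the results below was not tested. When control cells were weighted to the 4E-BP1–cKO mix of clusters, the log2 ratio of Cd14 was 0.35, against 0.52 unweighted, and that of Tlr2 0.34. When they were weighted to its mix of ribosomal and early-gene shares, the ratios were 0.50 for Cd14 and 0.44 for Tlr2.

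Within ribosome-poor cells, Tlr2 was at 143 CPM in the control and 249.6 CPM in the 4E-BP1–cKO library, a log2 ratio of 0.80 (ratio interval 1.42 to 2.16). In these cells 23.0% of all genes tested were past 1.5-fold between the libraries. In the other cells Tlr2 was at 177 and 203 CPM (0.20, ratio interval 0.980 to 1.34). The ratio of Tlr2 between the libraries was larger in ribosome-poor cells, and these 2 intervals did not overlap. After thinning the gap was smaller, with Tlr2 detected in 10.1% of control and 19.8% of 4E-BP1–cKO ribosome-poor cells and in 12.2% and 18.9% of the other cells. Cd14 was at 179.6 and 253 CPM in ribosome-poor cells (0.49) and at 420.3 and 573 CPM in the other cells (0.45). At equal depth the sides were less alike for Cd14, as given with the ribosomal contrast.

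Across bins of early-gene share, the ratios of Cd14 and Tlr2 were not even. Below 1.5% of early-gene UMIs, Cd14 was at 344 CPM in control and 371 CPM in 4E-BP1–cKO cells (0.11; 0.860 to 1.34). From 1.5% to 3% it was at 298 and 398 CPM (0.42; 1.16 to 1.54), and at 3% or more at 355 and 570.2 CPM (0.68; 1.41 to 1.83). The control library thus stayed between 298 and 355 CPM over the bins, and the 4E-BP1–cKO library was highest in the uppermost bin.

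For Tlr2 the log2 ratios in the same bins were 0.24 (0.853 to 1.61), 0.25 (0.982 to 1.44) and 0.72 (1.34 to 2.03). In the uppermost bin its levels were 139 and 229.7 CPM. Tlr7 was lower in the 4E-BP1–cKO library in each bin (-0.16, -0.13 and -0.23), with intervals that included 1. The bins held 345, 518 and 284 control cells and 106, 170 and 169 4E-BP1–cKO cells. The share of all genes past 1.5-fold within each bin was not computed.

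Ribosome-poor cells held less Cd14 than the other cells in both libraries. In the control library Cd14 was at 179.6 CPM in ribosome-poor (161 to 199.9) and 420.3 CPM in other cells (397 to 444), a log2 ratio of -1.22. In the 4E-BP1–cKO library it was at 253 (213 to 298) and 573 CPM (530.3 to 618), a ratio of -1.18. Cd14 was the 1 member of the 9 with at least 20 UMIs in each library that passed 1.5-fold in the same direction in both, against 27.1% of 8015 genes tested in this way. After thinning to 1000 UMIs the log2 ratios of Cd14 were -1.04 and -0.45, the second within 1.5-fold. Of the 6 members then tested 0 passed, against 32.4% of all genes.

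Tlr7 had the opposite direction. It was higher in ribosome-poor cells of the control library (235 against 183 CPM; 0.36, ratio interval 1.13 to 1.46) and of the 4E-BP1–cKO library (205 against 156 CPM; 0.39, 1.03 to 1.67). Tlr7 was the only tested member whose ratio was above 1 in both libraries. Its size depended on the scaling, with log2 ratios of 0.13 and 0.17 under TMM factors. Without such factors the median over all tested genes was 0.11 in the control and 0.10 in the 4E-BP1–cKO library.

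Unc93b1 differed by -0.15 and -0.28, Tlr3 by -0.51 and -0.60, Tlr4 by -0.28 and -0.54, Ly96 by -0.61 and -0.30 and Myd88 by -0.33 and -0.75 on the log2 scale in the control and 4E-BP1–cKO libraries. These 5 genes were lower in ribosome-poor cells of both libraries, although only for Unc93b1 did both intervals exclude 1. The share of all genes with both intervals clear of 1 was not counted. After thinning, Unc93b1 differed by -0.01 in the control and -0.50 in the 4E-BP1–cKO library. Tlr4 (0.42 and 0.27) and Myd88 (0.08 and 0.80) then had the opposite direction, on few UMIs. With totals that leave out ribosomal protein and mitochondrial genes, with TMM or with median-of-ratios factors, Tlr3 passed 1.5-fold as well. That made 2 of 9 members, beside 25.7% to 26.3% of all genes tested. Tlr13 differed by 0.03 and -0.13, and by -0.21 in the control library with TMM factors.

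Tlr2 went in opposite directions, with -0.31 in the control library (143 against 177 CPM; 0.694 to 0.938) and 0.30 in the 4E-BP1–cKO library (249.6 against 203 CPM; 0.993 to 1.52). These values were -0.19 and 0.17 after thinning and -0.16 and 0.18 with cells weighted equally. Depth differed along with the ribosomal share. Ribosome-poor cells had medians of 2354 UMIs in the control and 1971.5 in the 4E-BP1–cKO library, and other cells had 5512.5 and 4716. In cells thinned to 1000 UMIs, Cd14 was detected in 14.8% of ribosome-poor and 26.1% of other control cells, and in 28.4% and 38.8% of 4E-BP1–cKO cells. Ribosome-poor cells were thus lower in both libraries at equal depth, although by less in the 4E-BP1–cKO library on the scale of summed UMIs.

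**Figure D3:**
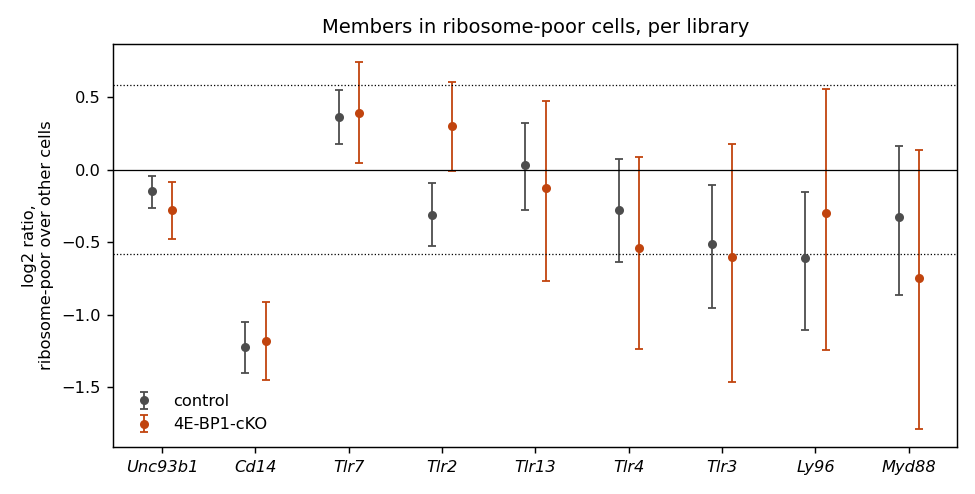
Log2 ratio of ribosome-poor cells (under 3% ribosomal protein UMIs) over the other cells for 9 genes in the control (grey) and 4E-BP1–cKO (orange) libraries. Bars are 95% counting intervals and dotted lines mark 1.5-fold. Cd14 lies at -1.22 and -1.18, Tlr7 at 0.36 and 0.39, and Tlr2 on opposite sides of 0.

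Cells were also divided at the median early-gene share, within each library and each side of the ribosomal limit, into early-high and early-low cells. No member (0 of 9) passed 1.5-fold in the same direction in both libraries, against 2.60% of the 8015 genes tested, a share that includes the early genes themselves. Cd14 differed little, with 314 CPM in early-high and 340.0 CPM in early-low control cells (-0.11; 0.836 to 1.02) and 484 and 451 CPM in 4E-BP1–cKO cells (0.10; 0.932 to 1.23). These groups, set on each ribosomal side, differ from the bins above, where Cd14 in the 4E-BP1–cKO library was at 371 CPM in the lowest and 570.2 CPM in the highest bin. With each cell weighted equally, Cd14 differed by 0.17 in the control and 0.42 in the 4E-BP1–cKO library.

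Tlr7 was lower in early-high cells, with 188 against 219 CPM in the control library (-0.22; 0.757 to 0.977) and 138 against 212 CPM in the 4E-BP1–cKO library (-0.62; 0.511 to 0.820). It was the only member with both intervals clear of 1, and how many of all genes did so was not counted. The size for Tlr7 depended on the setting. Between upper and lower tertiles of the early-gene share it differed by -0.30 (control) and -0.25 (4E-BP1–cKO). The second value was smaller than at the median and outside its counting interval. In thinned cells the differences were larger, at -0.50 (control) and -0.76 (4E-BP1–cKO). Tlr3 was at 39.8 against 54.2 CPM in the control (-0.43) and 36.8 against 50.6 CPM in the 4E-BP1–cKO library (-0.45).

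Myd88 was counted higher in early-high cells, with 36.2 against 26.0 CPM in the control (0.46; 0.993 to 1.96) and 39.0 against 28.4 CPM in the 4E-BP1–cKO library (0.45; 0.793 to 2.43). Its intervals included 1. Between the upper and lower tertiles of the early-gene share in place of the median, Myd88 (higher) and Tlr3 (lower) passed 1.5-fold in both libraries. So did 5.96% of all genes tested. Tlr2 differed by -0.36 (0.675 to 0.899) in the control library and by 0.00 (0.811 to 1.23) in the 4E-BP1–cKO library. Ly96 differed by -0.61 and -0.03, Tlr13 by -0.24 and -0.40, Tlr4 by 0.17 and -0.21 and Unc93b1 by -0.11 and 0.09.

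The cells were clustered with the 10 genes left out, so that the members played no part in the clusters, which gave 9 clusters numbered by size. They are named by number with their leading genes, and no cell type was given to them. Of the 81 pairs of a cluster and a member with at least 200 UMIs, 20 were past 1.5-fold against all other cells, 6 higher and 14 lower. Over all genes with at least 200 UMIs, 34.3% of such pairs were past 1.5-fold.

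Cd14 varied most between clusters, by 5.93-fold from the lowest to the highest. It was highest in cluster 6 (148 cells, led by Cxcl2, Mt2 and Gclm), at 772 CPM, 729.7 in control and 866 in 4E-BP1–cKO cells. It was next highest in cluster 9 (46 cells, led by Gm1673, Apoe and Pole3), at 596 CPM, with 556 and 669 CPM in the libraries. These were the only clusters in which Cd14 was past 1.5-fold higher.

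Cd14 was past 1.5-fold lower in clusters 1 (130.1 CPM; led by Gm35188, Gm43221 and Gm10135), 7 (155 CPM; P4htm, Mroh3 and Eldr) and 8 (174 CPM; Wdr95, Bag3 and 1700001K19Rik). The median ribosomal share of these 3 clusters was 1.17% to 1.33%, and that of clusters 6 and 9 was 9.74% and 18.3%. Cluster 2 had a ribosomal share as low (1.23%) and held 312 CPM of Cd14, within 1.5-fold of the other cells. Cluster 3, with the highest early-gene share (a median of 4.15%; led by Enkur, Bcdin3d and Fos), held 284 CPM of Cd14. In all 9 clusters the direction of Cd14 against the remaining cells was shared by the libraries.

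In cluster 6, Myd88 was also past 1.5-fold higher, at 49.3 CPM (0.81 on the log2 scale against other cells; ratio interval 1.31 to 2.41). Its levels there were 48.2 CPM in control and 51.7 CPM in 4E-BP1–cKO cells. Cluster 6 made up 8.37% of control cells (6.83% to 10.1%) and 11.7% of 4E-BP1–cKO cells (8.85% to 15.0%). Its cells were the deepest, with a median of 8325.5 UMIs.

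Cluster 5 (153 cells, led by Slc35a1, Gm5420 and Fkbp7) held the most Tlr3, Tlr4, Ly96, Tlr13 and Unc93b1. Tlr3 was at 78.0 CPM there (0.94 on the log2 scale against other cells; 1.48 to 2.53), Ly96 at 63.0 CPM (0.94; 1.44 to 2.61) and Tlr4 at 92.9 CPM (0.67; 1.26 to 2.02), and these 3 passed 1.5-fold. Both genes of the TLR4 and MD-2 pair were thus higher in cluster 5, whereas Cd14 was at 263 CPM there, below its mean in the other cells. Tlr13 was at 101 CPM (0.50) and Unc93b1 at 743 CPM (0.37), and neither passed 1.5-fold. In cluster 5 Tlr3 was at 75.0 CPM in control and 89.8 CPM in 4E-BP1–cKO cells, and Tlr4 at 92.5 and 94.8 CPM. Ly96 was at 67.5 CPM in control cells (1.02 against other cells). In 4E-BP1–cKO cells it was at 44.9 CPM on 9 UMIs (0.51), within 1.5-fold.

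Tlr3 was lowest in cluster 2 (16.1 CPM; 263 cells, led by Bicdl2, Raver2 and Slc24a1), on 12 UMIs (ratio interval 0.166 to 0.575). It was at 17.6 CPM in control (9 UMIs) and 12.9 CPM in 4E-BP1–cKO cells (3 UMIs). In that cluster Tlr2 (236 CPM) and Tlr7 (246 CPM) stood above their means in the other cells by 0.47 and 0.38. Tlr2 was past 1.5-fold lower in cluster 7 alone (87.5 CPM; -1.06, 0.330 to 0.666), and Tlr7 in cluster 9 alone (104 CPM; -0.92, 0.347 to 0.762). For Tlr7 in cluster 9 the log2 ratio was -1.25 in control cells, on 15 UMIs. In 4E-BP1–cKO cells it was -0.36 on 13 UMIs, within 1.5-fold.

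The remaining pairs past 1.5-fold rested on few UMIs, as did Tlr3 in cluster 2. In cluster 4, whose cells were shallow (a median of 768 UMIs; led by Cxcl10, Bsg and Gm19951), Tlr3 and Tlr4 had 9 UMIs each. In cluster 8 Tlr4 had 9 UMIs, and Myd88 and Ly96 had 4 each, and their intervals included 1. Tlr4 (7 UMIs) and Ly96 (4 UMIs) in cluster 9 and Ly96 (19 UMIs) in cluster 1 made up the rest. Unc93b1 and Tlr13 passed 1.5-fold in no cluster.

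**Figure D4:**
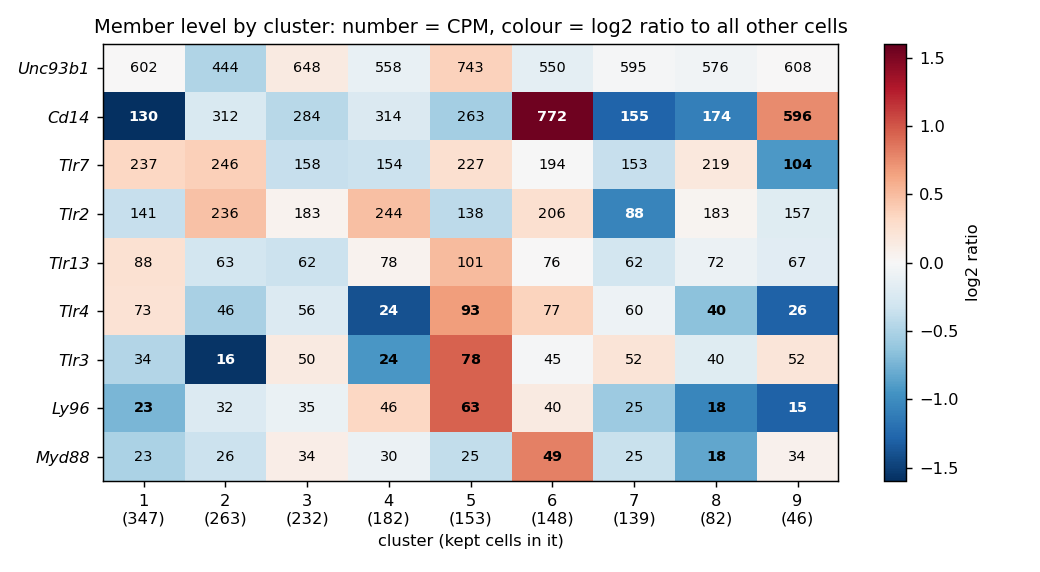
Level of 9 genes in the 9 clusters, with cells of both libraries summed. The number in each field is the CPM, the color is the log2 ratio against all other cells, and bold numbers are past 1.5-fold. Cd14 stands out in clusters 6 (772 CPM) and 9 (596 CPM), and Tlr3, Tlr4 and Ly96 in cluster 5.

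Across 18 points (9 clusters in each library), the genes whose log2(CPM + 10) was most like that of a member were listed, among 2461 genes with at least 500 UMIs. The points share libraries and depth, and r is a description. Cd14 was most like Rack1 (Pearson's r = 0.876), Gpr84 (0.868) and Rps2 (0.852), of which Rack1 and Rps2 code for parts of the ribosome and Gpr84 for a receptor of myeloid cells. Tlr2 was most like Actr3 (0.816), Ccrl2 (0.807) and Lcp2 (0.781). Tlr7 was most like Thoc2 (0.847), Ahcyl2 (0.840) and Fars2 (0.833), and Unc93b1 like Hps3 (0.820), Ntpcr (0.774) and Abi3 (0.751). Among these 4 members themselves, r ranged from -0.295 (Tlr7 with Cd14) to 0.429 (Tlr2 with Tlr7).

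In single cells, a median of 2 of the 10 genes was detected per cell in both libraries, and at least 1 of the 6 receptors in 67.9% of control (65.1% to 70.6%) and 64.9% of 4E-BP1–cKO cells (60.3% to 69.4%). After thinning to 1000 UMIs these shares were 37.5% (34.6% to 40.6%) and 41.3% (36.2% to 46.6%). Tlr2 and Cd14 were detected together in 30 thinned control cells, where the product of their shares gives 22.1, and in 16 4E-BP1–cKO cells, where it gives 23.5. Tlr7 and Unc93b1 were found together in 76 control cells (72.7 from the product) and 22 4E-BP1–cKO cells (23.5). Tlr4 and Ly96, whose products form the lipopolysaccharide receptor, were found together in 42 control and 15 4E-BP1–cKO cells before thinning and in 2 and 0 after it.

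The other genes of the pathway were grouped by role. Of 7 tested among 10 other receptors and their partners, 5 adaptors, 14 kinases and ubiquitin ligases, 9 genes of trafficking and processing and 6 transcription factors, none (0) passed 1.5-fold between the libraries. Ly86, which codes for MD-1, the partner of the TLR-related protein CD180, was the most abundant of the receptor group (1270.7 and 1388.4 CPM). Ctss, a protease that cleaves endosomal TLRs, was at 3354.0 and 3577.7 CPM, and Lgmn, another endosomal protease, at 1476.4 and 1529.7 CPM. Tlr8 had 0 UMIs in the control library (0 of 1147 cells, which by a limit of 3 counts allows a share of up to 0.262% of cells with a UMI and by the exact binomial interval 0.321%) and 2 in the 4E-BP1–cKO library, and Tlr11 had 0 in both, which allows up to 0.674% by 3 counts and 0.826% by the interval in the latter. The choice to name Tlr8 and Tlr11 followed their values.

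Of 11 tested targets of NF-κB and TLR signaling, 4 were past 1.5-fold higher in the 4E-BP1–cKO library and 0 lower (15.6% of all genes were past it in either direction), at a median log2 ratio of 0.53 against -0.05 over all genes. The 4 were chemokines. Cxcl2 was at 198 CPM in the control and 402 CPM in the 4E-BP1–cKO library (1.01; ratio interval 1.83 to 2.24) and Ccl2 at 275 and 430.1 CPM (0.64; 1.43 to 1.71). Ccl3 was at 959 and 1589.1 CPM (0.73) and Ccl4 at 3082.3 and 5065.4 CPM (0.72). Of 8 inhibitors tested, only Nfkbia, which codes for an inhibitor of NF-κB that NF-κB itself induces, was past 1.5-fold, at 1302.4 and 2151.8 CPM (0.72; 1.59 to 1.72). All 5 were lower in ribosome-poor cells of both libraries, with log2 ratios from -1.24 to -2.04. Such cells were 57.3% of control and 47.6% of 4E-BP1–cKO cells. The ratios of the 5 between the libraries were not weighted to a common mix of cells, and the part of the mix was not tested. These 5 genes were picked for passing 1.5-fold, which no member did in all kept cells. That their ratios exceed those of the 10 members therefore follows from the choice and is no finding.

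In ribosome-poor cells, 7 of 10 targets and 4 of 8 genes of trafficking and processing were past 1.5-fold lower in both libraries, and 0 targets and 1 gene of trafficking (Ap3b1, for a subunit of an adaptor complex, named after its values were known; 0.84 and 0.90) past it higher, against 27.1% of all genes tested in either direction. Ccl2 differed by -1.67 in the control and -2.04 in the 4E-BP1–cKO library, and Ctss by -1.72 and -1.69, each by more than Cd14. Of 14 kinases and ubiquitin ligases, 2 were past 1.5-fold higher and 0 lower. In early-high cells 4 of 6 inhibitors were past 1.5-fold higher in both libraries, against 2.60% of all genes in either direction. Among them Nfkbia differed by 1.15 and 1.11 and Socs1 by 0.67 and 1.87, and 1 of the 4, Dusp1, belongs to the early-gene list that divided the cells and is no finding. Of 10 targets, 1 was past 1.5-fold higher, namely Ptgs2 (0.77 and 0.76).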

How the data were processed

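scRNA-Seq of sorted mouse spinal microglia was analysed, with 1 library per genotype. The deposited values are unscaled UMI counts of genes in barcodes. Per the file headers the authors ran Cell Ranger 8.0.1, with alignment to mm10, without normalization or a filter beyond cell calling. The annotation release and whether intronic reads were counted are not given in the sources used here. The 10 genes and all gene lists were chosen with earlier results of these data known.

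Cells had more than 300 genes and under 5% mitochondrial UMIs. Doublets were kept, and Scrublet calls (4 of 1147 control and 11 of 445 4E-BP1–cKO cells) were left out only as an alternative. The study's own doublet step, scDblFinder, left fewer cells. UMIs were summed per set of cells and given as CPM, with a log2 ratio at a pseudocount of 1 CPM. Exact Poisson (levels), conditional (ratios) and Clopper-Pearson binomial (shares) 95% intervals cover counting error only. No p-value was computed, since cells are not replicates. A gene was tested at 20 UMIs over both libraries, 20 in each library for contrasts of cells, or 200 for clusters, and called past 1.5-fold. Clusters came from SCTransform 0.4.2 and RPCA integration in Seurat 5.3.0 under R 4.3.3 (20 principal components, resolution 1.4), without the members. Python 3.11.15, numpy 2.4.6, scipy 1.17.1, pandas 2.3.3, scanpy 1.11.5 and edgeR 4.0.16 (for TMM factors) were used. The ratio, interval and call steps were tested on simulated sums of UMIs, drawn as independent Poisson counts. Filtering, clustering and thinning were not simulated. For the ratio between libraries only the 4887 genes with at least 200 UMIs were simulated, so genes tested on fewer UMIs, such as Tlr9, were not covered. Of 200 genes changed by 2-fold, 198 were called correctly, and 95.8% of the intervals contained the true ratio. The draws follow the same counting error that the intervals assume. The coverage therefore says nothing of UMIs that gather in single cells. For the ribosomal and the early-gene contrast over 8015 genes, 162 and 165 of 200 such genes were called correctly.

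Named are all members, the other pathway genes with the most UMIs or the largest ratios (5 at most for each), the 3 genes most like each member with at least 500 UMIs, and the 3 leading genes of each cluster. The alternatives were other cell filters, doublet removal, another pseudocount, other totals and scaling factors, no minimum of UMIs, thinning, other ribosomal and early-gene limits, a shorter early-gene list and other clusterings. Weighting by state, equal weight per cell, cells of 1 ribosomal side and unthinned cells of at least 1000 UMIs were added after seeing the data.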

Additional observations from a re-analysis of the deposited data

Results flagged for a closer look

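Tlr2 was lower in ribosome-poor than in other cells of the control library (-0.31 on the log2 scale) and higher in ribosome-poor cells of the 4E-BP1–cKO library (0.30), a difference of 0.61 between the libraries. It stood out because the only library of each genotype went its own way. The difference was not tested, since there is 1 library per genotype, and the interval of the 4E-BP1–cKO ratio (0.993 to 1.52) included 1. The difference was smaller after thinning (-0.19 and 0.17) and with cells weighted equally (-0.16 and 0.18). Both directions were the same in all 13 alternatives run for this contrast, from -0.54 to -0.16 in the control and from 0.08 to 0.57 in the 4E-BP1–cKO library. These alternatives share most cells, and dropping the minimum of UMIs cannot change a ratio, so their count is no measure of stability.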

How the results depend on the processing

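No paired analysis was possible because there is 1 library per genotype. The count of members past 1.5-fold between the libraries stayed at 0 under the other cell filters, doublet removal, pseudocount, totals, scaling factors, no minimum of UMIs and both weightings by state. It was 3 of 9 after thinning (Tlr2 and Cd14 higher, Myd88 lower on 5 UMIs in the 4E-BP1–cKO library), against 25.8% of all genes tested. It was 1 of 9 in ribosome-poor cells only (23.0% of all genes) and 1 of 10 with cells weighted equally (23.8%), Tlr2 in both. Between ribosome-poor and other cells it was 1 of 9 (27.1% of all genes). It was 2 with totals without ribosomal protein and mitochondrial genes (26.2%), with TMM factors (26.3%) and with median-of-ratios factors (25.7%). At a ribosomal limit of 2% it was also 2 (26.9%), and Tlr3 was the added member in each. After thinning it was 0 of 6 tested (32.4%), with Cd14 in the 4E-BP1–cKO library at -0.45. TMM factors shifted the log2 ratios of all genes in this contrast by -0.23 in the control and -0.22 in the 4E-BP1–cKO library. Myd88 in this contrast of the 4E-BP1–cKO library, -0.75, was 0.80 after thinning. Between early-high and early-low cells the count was 0 of 9 (2.60% of all genes), and 2 of 9 between tertiles (5.96%). Of the pairs of clusters and members, 12 were past 1.5-fold at a resolution of 0.8 (of 54) and 31 at 2.0 (of 108). Over all genes the shares of such pairs were 29.6% and 35.2%. The cause of these changes was not tested, except that the resolutions change the number of pairs. Of 670 recomputed log2 ratios of members, 629 stayed within their counting interval, 40 fell outside it and 1 reversed. Thinning gave 18 of the 40. Dropping the minimum of UMIs leaves every ratio as it was, so those values could not fall outside. The pooled count is therefore no measure of stability. Depth limits Tlr9, Myd88 and Ly96 most, and mice could not be separated.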
